A study of Rattus norvegicus with 6 samples.

Results

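The endoplasmic reticulum (ER) folding genes described here are 33 ER chaperones, disulfide enzymes, degradation factors and genes of the unfolded protein response. They were listed by gene name and role with earlier results of these data known, as were the other lists of genes below. Shares of these lists set beside those of the array thus describe the lists and test nothing. Of the 33, 31 had at least 1 probe set annotated to that gene alone, among 10411 genes read in this way on the array. The sensors Atf6 and Ern1 (IRE1) had none and were not analysed here. A gene with several probe sets was read on the one with the highest mean over the 6 arrays, and all 31 passed the filter on dim probe sets, as did 7106 genes in all. The study, on chronic ethanol consumption, compared rat pancreas on a control diet with rat pancreas on an ethanol diet, 3 samples of each, with biotin-labelled target from total RNA of each sample on 1 array. The sources do not state strain, age, sex, ethanol dose or length of feeding. The labels number the samples of a diet as replicates without saying that they come from separate animals, so p-values measure only the spread between these samples, which may be technical. Values are intensities, background-subtracted and on a linear scale, and changes are ethanol minus control on the scale of log2(intensity + 50), which understates the change of dim genes.

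The ER is where secreted and membrane proteins are folded, and the exocrine acinar cell of the pancreas, which makes digestive enzymes in bulk, is among the most ER-rich cells known. Chaperones such as Hspa5 (BiP) hold unfolded chains, the protein disulfide isomerases form and reshuffle disulfide bonds, and chains that fail are sent to the cytosol for degradation. When unfolded chains build up, the sensors PERK (Eif2ak3), IRE1 (Ern1) and ATF6 signal to the nucleus, where XBP1 and ATF6 raise chaperone and degradation genes and ATF4 raises genes of amino acid supply, redox balance and, through Ddit3 (CHOP), cell death.

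The tissue carried the markers its label names: the 10 measured acinar markers summed to 1128500 to 1154140 in control samples and to 1148810 to 1199960 in ethanol samples. Among them Cpa1, a carboxypeptidase, had a log2 change of 0.02 and Pnlip, the pancreatic lipase, 0.10; both read near the top of the arrays' range, where a change can be hidden. Of the 10, 3 had all ethanol samples above all controls and none had all below, against 11.0% and 15.4% of all tested genes. None passed adjustment. At an unadjusted limma p under 0.05, none was lower and 1 was higher, against 11.2% and 7.64% of all tested genes. That one, Ptf1a, an acinar transcription factor named after its values were seen, read 9361, 8759 and 10111 against 12259, 12386 and 14084 (log2 change 0.45, SE 0.14, limma adjusted p = 0.161). Log2 values correlated across tested probe sets, which are not independent replicates, at r of 0.927 to 0.963 within a diet and 0.907 to 0.935 across diets. The arrays had been brought to medians of 543 or 544, so a difference in total RNA between diets would not show. In whole tissue, fewer cells of a type and less RNA per cell cannot be told apart.

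Of the 31 measured genes, Dnajb9 fell by limma's test over all probe sets, and 30 did not pass. Over the whole array 0.410% of 9520 probe sets passed. Below that threshold the genes spread in both directions. At an unadjusted limma p under 0.05, 5 of 31 (16.1%) were higher in ethanol samples, against 7.64% of all tested genes, and 7 (22.6%) were lower, against 11.2%. All 3 ethanol samples lay above all 3 control samples for 7 genes (22.6%, against 11.0% of all tested genes) and below them for 8 (25.8%, against 15.4%). The median log2 change over the 31 was -0.094, beside -0.011 over all tested genes, so the middle of the set lay near that of the array while its members ran from -1.42 to 0.68.

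The higher genes were Sdf2l1, Sil1, Pdia4, Erp29 and Creld2, and the lower ones Dnajb9, Hspa5, Hsp90b1, Hyou1, Manf, Pdia3 and Xbp1. With 1 array left out these counts moved. The count of lower genes was 3 without control sample 1, 4 without control sample 2 and 4 without ethanol sample 1. The count of higher genes was 3 without control sample 2, without control sample 3 or without ethanol sample 3. The share of all tested genes was not taken in these fits, so a shift particular to this set cannot be read from them. Probe sets of the whole array that passed adjustment, 39 with all arrays, were 2 to 38 in these fits.

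**Figure D1:**
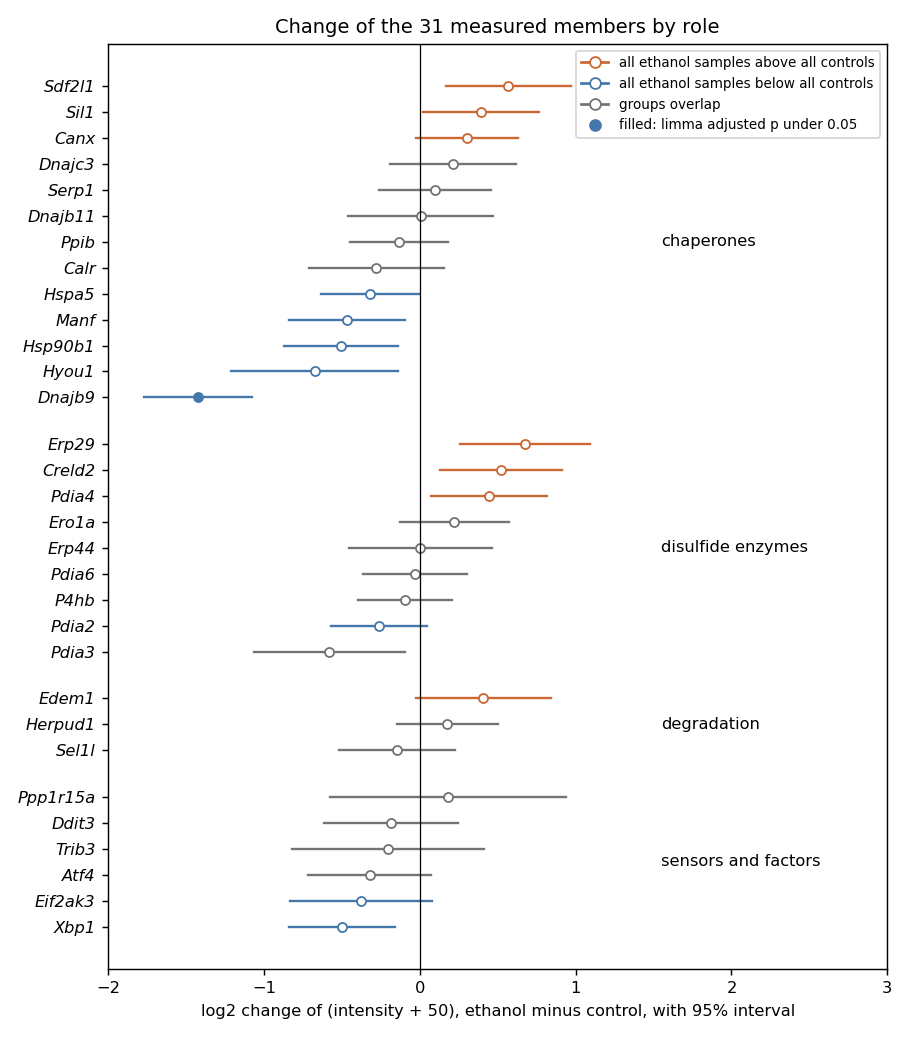
Log2 change of each of the 31 measured genes, ethanol minus control, with its 95% interval from limma, grouped by role; orange marks genes with all ethanol samples above all control samples, blue those with all below, grey those whose groups overlap, and a filled point an adjusted p under 0.05. Dnajb9, at -1.42, is the filled point, and chaperones and disulfide enzymes lie on both sides of 0.

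The promoters of these genes are known for a shared control element, the ER stress response element (ERSE), to which ATF6 and XBP1 bind with the factor NF-Y. It is shown here because the genes that carry it lay on both sides of 0. RefSeq promoter windows of the GRCr8 rat assembly, 250 bases before to 50 after a transcription start, were found for 27 of the 33 genes, Hyou1 with 2 windows. The windows were searched on both strands for ERSE (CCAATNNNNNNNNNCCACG), ERSE-II (ATTGGNCCACG), the core of the unfolded protein response element (UPRE, TGACGTGG) and the C/EBP-ATF element that ATF4 binds (TGATGNAA). An ERSE stood in 7 of the 27 genes (25.9%), against 0.219% of the 5925 tested genes with a window and 0.0765% of all 27457 genes with one. The 7 are among the 13 tested genes with an ERSE. As the promoters of these genes are known for the element, these shares describe the set and test nothing. An ERSE-II stood in 3 (11.1%), against 0.101% and 0.0619%. The UPRE core was found in Hyou1 alone, where it overlaps an ERSE-II (3.70% of the 27, against 0.928% of tested genes and 0.681% of all). The C/EBP-ATF element was found in Herpud1 and Trib3 (7.41%, against 1.91% and 4.16%).

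The ERSE and ERSE-II matches are printed 5′ to 3′ on the strand of the gene, with the match in capitals and 5 bases on each side, on GRCr8. Matches of the UPRE core and the C/EBP-ATF element are not printed. The printed matches of Hsp90b1 (the later one), Calr, Creld2 and Hyou1 are on the opposite strand and so read in reverse complement.
Hspa5 ERSE, chr3:38452968-38452996, plus strand: gttcaCCAATCGGAGGCCTCCACGacggg
Hsp90b1 ERSE, chr7:23012446-23012474, minus strand: caaacCCAATCGAAAGGAGCCACGcttcg
Hsp90b1 ERSE, chr7:23012342-23012370, minus strand: gagtgCGTGGTGAGGCACGATTGGtgggt
Calr ERSE, chr19:40213130-40213158, plus strand: caacgCGTGGTCGACCCTGATTGGcccag
Xbp1 ERSE, chr14:84604553-84604581, plus strand: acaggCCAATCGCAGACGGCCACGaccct
Canx ERSE, chr10:35158064-35158092, minus strand: cttgtCCAATCATCACGCTCCACGaagaa
Dnajc3 ERSE, chr15:102432529-102432557, plus strand: caaagCCAATCAGCGCCAACCACGaccca
Creld2 ERSE, chr7:121789234-121789262, plus strand: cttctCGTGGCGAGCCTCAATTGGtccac
Hyou1 ERSE-II, chr8:53602689-53602709, plus strand: cgtgaCGTGGGCCAATccgca
Hyou1 ERSE-II, chr8:53602789-53602809, plus strand: ttctaCGTGGCCCAATgggga
Dnajb11 ERSE-II, chr11:91672795-91672815, minus strand: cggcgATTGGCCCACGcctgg
Herpud1 ERSE-II, chr19:10614816-10614836, minus strand: cgctgATTGGGCCACGttggg

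The 10 genes with an ERSE or ERSE-II divided evenly by the sign of their change, with Dnajb11, near 0, counted as positive. At an unadjusted limma p under 0.05, Hyou1, Hsp90b1, Xbp1 and Hspa5 were lower and Creld2 alone higher. Of all tested genes 11.2% were lower and 7.64% higher at that p. Hspa5 was near the limit, at an unadjusted limma p of 0.0478, and at 0.0506 with a constant of 20. The log2 change was -0.67 for Hyou1, -0.51 for Hsp90b1, -0.50 for Xbp1, -0.32 for Hspa5 and -0.28 for Calr. It was 0.52 for Creld2, 0.30 for Canx, 0.21 for Dnajc3, 0.18 for Herpud1 and 0.0050 for Dnajb11. Their median was -0.14, and that of the 17 genes with a window and neither match was -0.094. Dnajb9, which changed most, had none of the 4 motifs in its window, which says only that these letters are not there. Its window is printed beside that of Hspa5, whose ERSE begins 43 bases before the transcription start.
Hspa5 promoter, chr3:38452766-38453065, plus strand: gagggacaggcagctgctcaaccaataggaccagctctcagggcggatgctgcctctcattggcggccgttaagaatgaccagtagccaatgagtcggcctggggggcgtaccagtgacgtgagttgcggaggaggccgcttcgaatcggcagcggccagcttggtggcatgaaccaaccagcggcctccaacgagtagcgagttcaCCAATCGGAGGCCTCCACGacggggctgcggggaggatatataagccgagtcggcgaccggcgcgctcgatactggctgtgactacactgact
Dnajb9 promoter, chr6:67002002-67002301, minus strand: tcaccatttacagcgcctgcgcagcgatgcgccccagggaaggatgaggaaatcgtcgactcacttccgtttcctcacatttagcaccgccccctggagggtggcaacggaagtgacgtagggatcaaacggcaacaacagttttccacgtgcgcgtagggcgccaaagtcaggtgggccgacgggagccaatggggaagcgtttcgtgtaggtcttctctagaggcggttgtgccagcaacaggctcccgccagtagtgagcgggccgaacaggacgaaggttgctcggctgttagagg

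Dnajb9 (ERdj4), a J-domain partner of Hspa5 that steers chains to degradation and holds the sensor IRE1 in check, fell in the ethanol samples to 0.373 of its control level on the scale with 50 added. Control samples 1, 2 and 3 read 3344, 2967 and 3029 and ethanol samples 1, 2 and 3 read 975, 1275 and 1153. The highest ethanol sample, at 1275, was far below the lowest control sample, at 2967, with means of 3113 ± 202 (SD, n = 3) on the control diet and 1134 ± 151 (SD, n = 3) on the ethanol diet. The change was -1.42 on the log2 scale (SE 0.15, 95% interval -1.77 to -1.07, limma adjusted p = 0.0168), and the direction held in 3 of 3 ethanol samples. Without control sample 1, 2 or 3 or ethanol sample 3 the adjusted p was 0.126, 0.0941, 0.108 and 0.108, at changes between -1.46 and -1.37, and those calls were lost. It was 0.129 with no filter, where the call was lost too, and over all alternatives it ran from 0.00119 to 0.129, with the change between -1.51 and -1.32.

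On the same arrays the 4 erythroid markers summed to 15433 to 22883 in control samples and to 25617 to 33312 in ethanol samples, with 4 of 4 positive changes and none at 0. Hbb, a globin, had a log2 change of 0.80 and Hba-a3, another, of 0.64. The 5 measured adipocyte markers summed to 4602 to 7038 and to 8211 to 9335, the brightest being Lpl (0.77) and Fabp4 (-0.13), and none was at 0. At an unadjusted limma p under 0.05, 3 of 4 erythroid (75.0%) and 2 of 3 tested adipocyte markers (66.7%) were higher. Of all tested genes 7.64% were higher. None of these markers passed after adjustment. Their part in the fall of Dnajb9, or in the other differences between diets given here, was not tested.

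**Figure D2:**
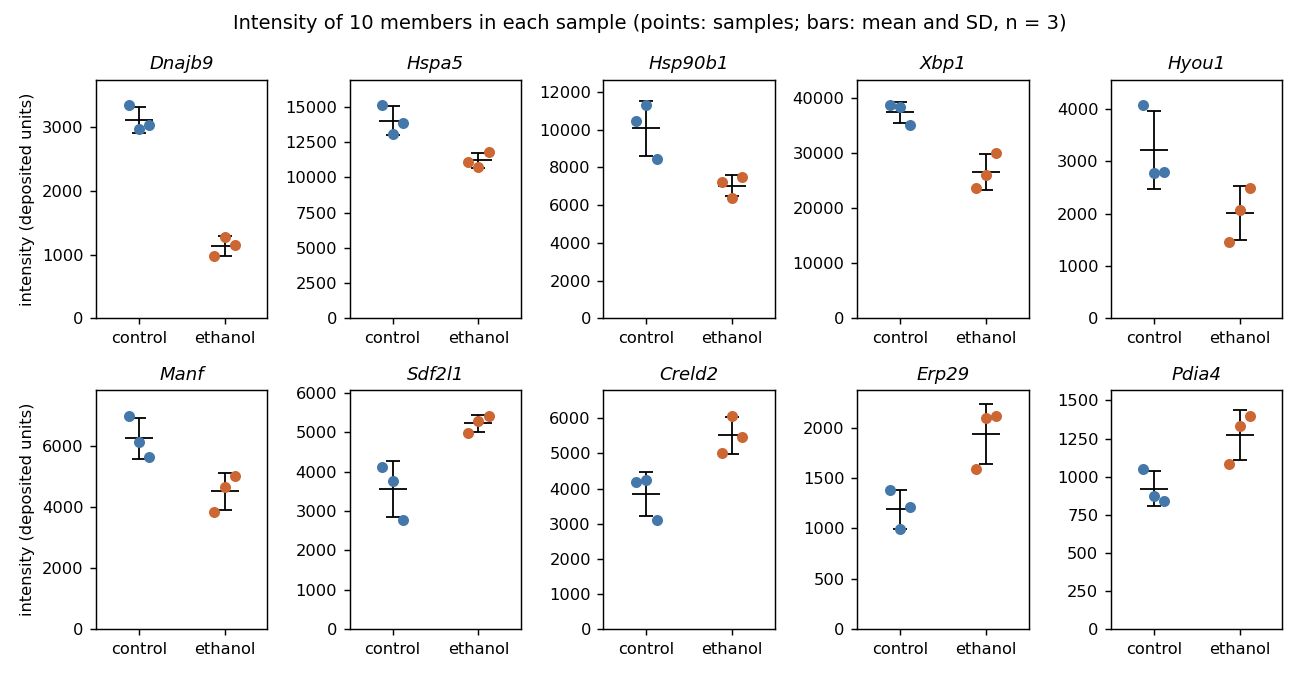
Intensity of 10 genes in each sample, with points for samples and bars for the mean and SD of 3 samples per diet; each panel has its own vertical axis from 0. Dnajb9 runs from 2967 to 3344 in control samples and 975 to 1275 in ethanol samples, while Sdf2l1, Creld2, Erp29 and Pdia4 are higher in the ethanol samples. All 10 genes shown have groups that do not overlap, so they are not typical of the set. Of the 31, this held for 7 higher (22.6%, against 11.0% of all tested genes) and 8 lower (25.8%, against 15.4%).

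The main luminal chaperones had lower values in ethanol samples without passing the test. Hspa5, the ER Hsp70, read 15128, 13063 and 13902 in control samples and 11107, 10770 and 11823 in ethanol samples. All 3 ethanol samples were below all 3 controls, at a small difference (log2 change -0.32, SE 0.14, limma adjusted p = 0.267). Hsp90b1 (GRP94), the ER Hsp90, read 10442, 11301 and 8472 against 7251, 6388 and 7484, again without overlap (log2 change -0.51, SE 0.16, limma adjusted p = 0.166). The lectin chaperones that hold glycoproteins, Calr and Canx, pointed in opposite ways. Soluble Calr read 6305, 5677 and 4937 against 3740, 4589 and 5709, with ethanol sample 3 inside the control range (log2 change -0.28, SE 0.19, limma adjusted p = 0.461). Its change was -0.13 without ethanol sample 1 and -0.43 without ethanol sample 3. Membrane-bound Canx read 4534, 4241 and 3766 against 4981, 4982 and 5500, all ethanol samples higher (log2 change 0.30, SE 0.14, limma adjusted p = 0.306), and its change was 0.14 with its probe sets averaged. The difference between these changes was not tested.

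The factors that drive the ATP cycle of Hspa5 were likewise divided. Hyou1 (GRP170), a nucleotide exchange factor, read 4067, 2765 and 2794 in control samples and 1464, 2064 and 2487 in ethanol samples. The groups did not overlap, and control sample 1 stood above its own group (log2 change -0.67, SE 0.23, limma adjusted p = 0.187). Sil1, the other exchange factor, read 750, 866 and 907 against 937, 1253 and 1179, each ethanol sample above each control (log2 change 0.39, SE 0.16, limma adjusted p = 0.249). Manf, a secreted ER-resident cofactor of Hspa5, read 6976, 6114 and 5637 against 3839, 4656 and 5020, all ethanol samples lower (log2 change -0.47, SE 0.16, limma adjusted p = 0.185). Sdf2l1, which works in a complex with Dnajb11, read 4130, 3772 and 2770 against 4993, 5281 and 5418. Its ethanol samples lay close together and above every control (log2 change 0.57, SE 0.18, limma adjusted p = 0.161). Dnajb11 (ERdj3) itself read 2595, 1725 and 1539 against 1801, 1984 and 1952, with all ethanol samples inside the control range (95% interval of the log2 change -0.46 to 0.47). Dnajc3 (p58IPK), a J-domain protein that also restrains PERK, was at 5971 ± 1199 (SD, n = 3) on the control diet and 6844 ± 520 (SD, n = 3) on the ethanol diet, with a 95% interval of -0.19 to 0.62.

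Of the 13 chaperones and co-chaperones, 2 (15.4%) were higher and 5 (38.5%) lower at an unadjusted limma p under 0.05, against 7.64% and 11.2% of all tested genes, and their median log2 change was -0.13. Ppib (cyclophilin B), a prolyl isomerase, was at 21563 ± 1640 (SD, n = 3) on the control diet and 19643 ± 894 (SD, n = 3) on the ethanol diet, a log2 change with a 95% interval of -0.45 to 0.18. Serp1 (RAMP4), which sits at the translocon, was at 31298 ± 3610 (SD, n = 3) on the control diet and 33415 ± 3646 (SD, n = 3) on the ethanol diet, with an interval of -0.26 to 0.45. Both intervals hold 0.

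Among the 9 disulfide enzymes and their family members, 3 (33.3%) were higher and 1 (11.1%) lower at an unadjusted limma p under 0.05, and none passed after adjustment. Of all tested genes 7.64% were higher and 11.2% lower, so the share lower was that of the array. Erp29, a redox-inactive family member that aids secretion, read 1379, 992 and 1209 in control samples and 1591, 2101 and 2120 in ethanol samples. All ethanol samples were above all controls (log2 change 0.68, SE 0.18, limma adjusted p = 0.130). Pdia4 (ERp72) read 1053, 870 and 840 against 1084, 1334 and 1398, where ethanol sample 1 exceeded the highest control by little (log2 change 0.44, SE 0.16, limma adjusted p = 0.202). Creld2, an ER protein with disulfide isomerase activity, read 4185, 4239 and 3118 against 5001, 6068 and 5477, again without overlap (log2 change 0.52, SE 0.17, limma adjusted p = 0.170). Pdia3 (ERp57), which serves glycoproteins bound to calnexin and calreticulin, had lower values. It read 7753, 6245 and 5017 against 3750, 5228 and 3649, with ethanol sample 2 above control sample 3 (log2 change -0.58, SE 0.21, limma adjusted p = 0.201). With its probe sets averaged the change was -0.17, at an unadjusted limma p of 0.221.

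The enzymes of general oxidative folding did not pass either. P4hb, the founding protein disulfide isomerase, was at 48490 ± 1844 (SD, n = 3) on the control diet and 45432 ± 2283 (SD, n = 3) on the ethanol diet, a log2 change of -0.09 with a 95% interval of -0.40 to 0.21. Pdia2, the isomerase known from pancreas, read 37174, 34985 and 37735 against 32509, 28730 and 30653, all ethanol samples lower (log2 change -0.26, SE 0.13, limma adjusted p = 0.344), and its change was -0.16 with quantile normalization. Pdia6 (P5), another isomerase, read 13235, 12885 and 11144 against 11116, 13088 and 12206, with a 95% interval of -0.37 to 0.30 and overlapping groups. Ero1a, the oxidase that recharges the isomerases, read 990, 905 and 1042 against 1331, 1105 and 1029, with overlap (log2 change 0.22, SE 0.15, limma adjusted p = 0.470). Erp44, which retrieves that oxidase to the ER, was at 1494 ± 273 (SD, n = 3) on the control diet and 1503 ± 300 (SD, n = 3) on the ethanol diet (95% interval -0.46 to 0.46). None of the 31 genes was near the top of the arrays' range: the highest mean, that of P4hb, was 28.7% of the lowest array maximum.

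The 3 degradation genes of the set did not pass. Herpud1, a stress-induced scaffold of the HRD1 ubiquitin ligase, read 13310, 13228 and 15379 in control samples and 15499, 16833 and 14975 in ethanol samples (log2 change 0.18, SE 0.14, limma adjusted p = 0.536). Sel1l, the adaptor of that ligase, read 17901, 16306 and 13688 against 13705, 13209 and 16308 (log2 change -0.15, SE 0.16, limma adjusted p = 0.666). In both the groups overlapped. Edem1, which recognises mannose-trimmed glycoproteins, read 4312, 4322 and 3556 against 4836, 4669 and 6916. All its ethanol samples were above the controls, ethanol sample 3 by the most (log2 change 0.41, SE 0.19, limma adjusted p = 0.298). Without that sample the change was 0.23.

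Of the 6 measured sensors, transcription factors and regulators, 5 had a negative change, as did 3656 of all 7106 tested genes. Xbp1 alone was lower at an unadjusted limma p under 0.05 (16.7%, against 11.2% of all tested genes). Xbp1, the transcription factor made active when IRE1 splices its messenger RNA, read 38718, 38430 and 35220 in control samples and 23714, 26006 and 30021 in ethanol samples. The groups did not overlap and the change was -0.50 (SE 0.15, 95% interval -0.84 to -0.16, limma adjusted p = 0.149). With a variance trend in the fit its adjusted p was 0.0230, and over all alternatives it ran up to 0.348. Its single probe set is annotated to the gene and not to a splice form. Eif2ak3 (PERK), the kinase that slows translation under stress, read 4739, 5032 and 6169 against 4534, 4715 and 3106, where the groups just failed to overlap and ethanol sample 3 was the lowest (log2 change -0.38, SE 0.20, limma adjusted p = 0.350). Without that sample the change was -0.19.

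Downstream of PERK no rise was called. Atf4, whose protein is controlled mainly by translation, read 18388, 20040 and 21029 in control samples and 19577, 14756 and 13701 in ethanol samples, 2 of them below all controls (log2 change -0.32, SE 0.17, limma adjusted p = 0.357). Ddit3 (CHOP), the factor tied to death under ER stress, read 776, 664 and 545 against 645, 625 and 457 (95% interval of the log2 change -0.62 to 0.24). Trib3, a pseudokinase induced by ATF4 and CHOP, read 1250, 941 and 1332 against 1483, 993 and 681, a spread among ethanol samples that covered every control (95% interval -0.82 to 0.41). Ppp1r15a (GADD34), which undoes the PERK signal, read 849, 721 and 814 against 478, 1105 and 1373. Ethanol sample 1 was below all controls and the others above, and the 95% interval of -0.58 to 0.94 was the widest of the set.

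The samples of a diet differed among themselves in a way that ran across many of these genes. Control sample 1 was the highest control for 20 of the 31 genes and control sample 3 the lowest for 19. Ethanol sample 3 was the highest of its diet for 16 genes and ethanol sample 1 the lowest for 17. These counts were not taken over all tested genes, so they do not set this set apart from the array. Relative to the control mean, the median log2 deviation of the 31 genes was 0.11, -0.024 and -0.13 in control samples 1, 2 and 3, and -0.078, -0.076 and 0.025 in ethanol samples 1, 2 and 3. The same medians over all tested genes lay between -0.016 and 0.0057. The spread of a gene within a diet was like that of the array: the median SD of log2 values was 0.16 in control samples and 0.18 in ethanol samples, beside 0.17 and 0.21 over all tested genes. Ppp1r15a (SD 0.75) and Trib3 (SD 0.53) varied most among ethanol samples, and Sdf2l1 (0.060) and Ppib (0.066) least.

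**Figure D3:**
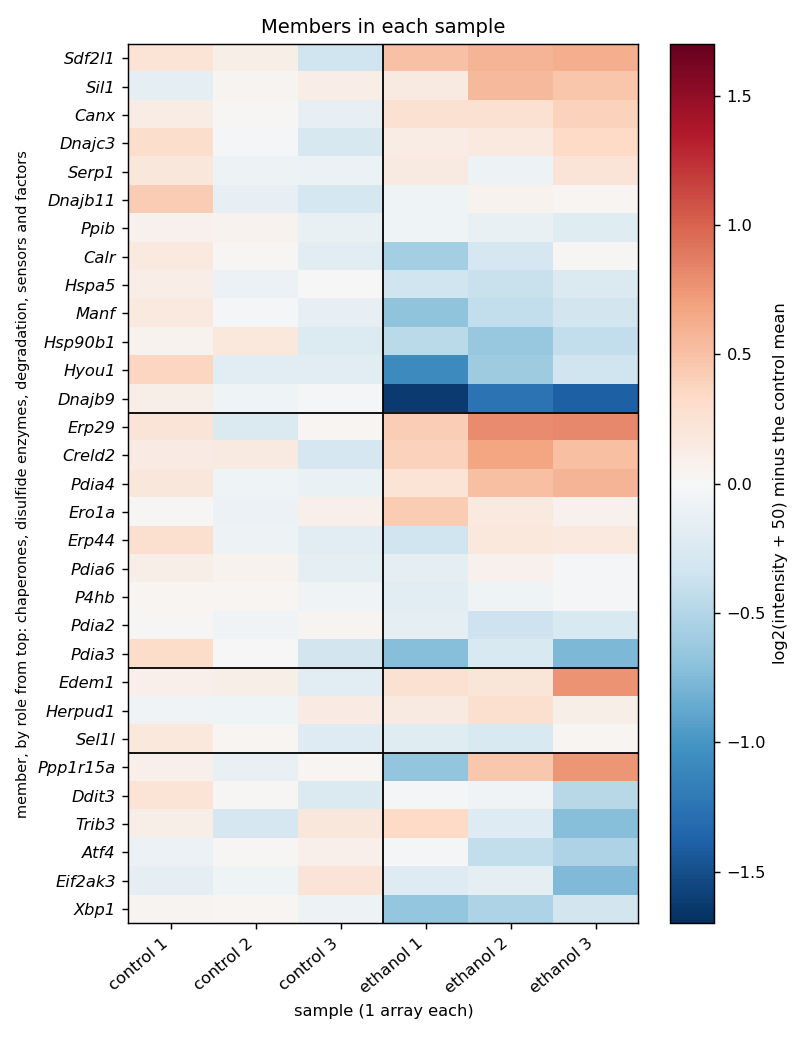
Log2(intensity + 50) of each of the 31 genes in each sample minus the mean of the control samples, from blue (lower) to red (higher), with genes by role and columns by sample. Dnajb9 is dark blue in all 3 ethanol samples, Sdf2l1, Erp29, Creld2 and Pdia4 are red there, and Ppp1r15a and Trib3 change colour from sample to sample.

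For 24 of the 31 genes a single probe set was the only reading. The other 7 had 9 further, dimmer probe sets, of which 7 passed the intensity filter, and 3 of the 9 had the sign of the brighter one. The second probe set of Hyou1 gave -0.25 and that of Pdia3 0.24, the opposite sign from its brighter one at -0.58. The further probe sets of Canx gave 0.12 and 0.0042, and those of Trib3 0.03 and 0.04. Serp1 (-0.13), Ero1a (-0.15) and Erp44 (-0.14) also had a second probe set of negative change. None of the 7 tested passed by limma, also at an unadjusted p under 0.05.

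Around the set, other genes of ER-associated degradation lay lower in the ethanol samples more often than higher. Of 18 tested, 7 (38.9%) were lower and 1 higher at an unadjusted limma p under 0.05, against 11.2% and 7.64% of all tested genes, 14 of the 18 had a negative change, and their median was -0.25. None passed after adjustment. Os9, a lectin that brings glycoproteins to the HRD1 ligase, read 3429, 2931 and 2586 in control samples and 1763, 1715 and 1600 in ethanol samples (log2 change -0.79, SE 0.15, limma adjusted p = 0.0793). Man1b1, a mannosidase that marks glycoproteins for degradation, read 9642, 8334 and 8330 against 5960, 5118 and 4863 (log2 change -0.72, SE 0.15, limma adjusted p = 0.0861). In both, every ethanol sample was below every control. The count of 7 was 4 without control sample 1 or control sample 2 and 3 without ethanol sample 1.

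Of 30 other ER folding enzymes, 6 were lower and 1 (3.33%) higher at that p, against 11.2% and 7.64% of all tested genes, with 24 negative changes and a median of -0.11, and none passed after adjustment. Mesd, a chaperone of lipoprotein receptors, had a log2 change of -0.62 (SE 0.14) and Hspa13, an Hsp70 of microsomes, -0.62 (SE 0.16). Of 17 genes of stress signalling and its regulators, 1 (5.88%, against 7.64%) was higher and 0 were lower at that p by limma, and none passed after adjustment. They were led by Creb3l1, an ER-anchored transcription factor (0.49, SE 0.15), and Eif2ak4 (GCN2), the kinase that senses amino acid shortage (-0.39, SE 0.17).

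Of 20 ATF4 target genes, 5 (25.0%) were higher and 0 lower at an unadjusted limma p under 0.05, against 7.64% and 11.2% of all tested genes, and none passed after adjustment. Ddit4 (REDD1), an inhibitor of mTORC1, read 766, 1484 and 1138 in control samples and 2801, 6494 and 6352 in ethanol samples (log2 change 2.11, SE 0.35, limma adjusted p = 0.0571). Cth, an enzyme of cysteine synthesis, read 3537, 3671 and 3093 against 5543, 5337 and 5469 (log2 change 0.66, SE 0.14, limma adjusted p = 0.0865). In both, all ethanol samples were above all controls. The other 3, chosen after their values were seen, were Atf3 (3.66), Chac1 (0.69) and Atf5 (0.40). Atf3, a stress-induced transcription factor, read -38, 200 and 162 against 388, 3413 and 3459, with a limma adjusted p of 0.103 and an SE of 0.87. Its control sample 1 was below 0 and set to 0, so the size of this change depends on the constant added. The median of the 20 was 0.015, and Asns, another target named after its value was seen, was at -0.09.

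**Figure D4:**
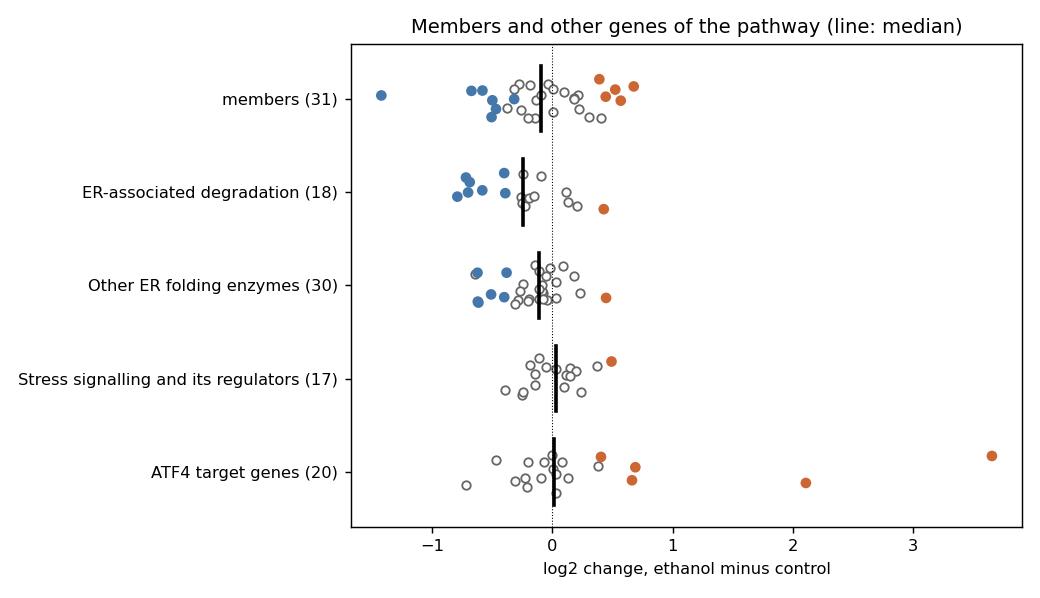
Log2 change of the 31 measured genes and of 4 lists of other pathway genes, 1 point per gene, filled orange or blue where the unadjusted limma p was under 0.05, with a line at each median and the number of tested genes in brackets. The degradation list has its median at -0.25 and 7 blue points, and the ATF4 targets have their filled points on the right.

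Markers of the remaining cell types overlapped between diets in their summed intensity. The 8 islet markers summed to 148753 to 182168 in control samples and 115767 to 181731 in ethanol samples, led by Ins2 (-0.09) and Ins1 (-0.17). The 2 measured plasma cell markers, of a type that is also rich in ER, summed to 1622 to 2522 and 2078 to 2611 (Prdm1 0.20, Sdc1 0.19). The sums were 6224 to 7922 and 5569 to 6560 for 4 ductal markers (Epcam -0.25, Spp1 -0.24), and 12043 to 19861 and 11678 to 17581 for 8 stellate and fibroblast markers (Col3a1 -0.05, Dcn -0.14). They were 5897 to 7800 and 5138 to 7010 for 6 leukocyte markers (Lyz2 0.02, Cd74 -0.52), and 1358 to 1786 and 1344 to 1649 for 3 endothelial markers (Kdr -0.18, Pecam1 -0.04). Values in brackets are log2 changes of the 2 brightest markers, and no tested marker in these lists passed by limma, also at an unadjusted p under 0.05. Acta2, a dim stellate marker below the filter and so not tested, read 305, 401 and 330 against 178, 134 and 267, without overlap. It was named after its values were seen.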

How the data were processed

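Pancreas RNA of 6 samples was measured on 1 array each. The authors deposited 1 intensity for each probe set. These are whole numbers with some below 0, and every array has a median of 543 or 544. Background had thus been subtracted and the arrays scaled, by a method not given in the sources used here. Of the probe sets, 57 control spots were left out. The platform annotation named 1 gene for 12783 probe sets, more for 312 and no gene for 2771. Values below 0 were set to 0, 50 was added and the log2 taken. Probe sets at or above the 40th percentile of mean log2 were tested with limma 3.58.1 in R 4.3.3, with no block and Benjamini-Hochberg adjustment over all of them at 0.05; the procedure was tested on simulated data. Samples were grouped by the diet in their labels. The number of arrays limits the precision, with a median standard error of 0.16 for these genes. All members are named; of other pathway lists, the 2 genes of smallest p, and of marker lists the 2 of highest mean. Members and lists were chosen with earlier results of these data known. Intensities of different probe sets were not compared as amounts of RNA. They were ranked to choose probe sets and markers, summed over marker lists and set beside the arrays' range. Promoter motifs were counted per gene over its windows. Protein sequences were not used here. Alternatives were 2 other constants, 2 normalizations, 2 filters, a variance trend, a replicate block, a threshold of 0.10, probe set means and each array left out.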

Additional observations from a re-analysis of the deposited data

How the results depend on the processing

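Over the 15 alternatives other than the threshold of 0.10 (14 for Ddit3, which the filter at the 60th percentile removed), 24 of the 31 genes kept the sign of their change, and the other 7 lay near 0 or varied widely. Dnajb9 was negative in all 15 and passed in 9. The number of these genes that passed limma's test, 1 as reported, was 2 with a variance trend (Dnajb9 and Xbp1), 0 with no filter (at an unadjusted p under 0.05, 6 higher and 8 lower) and 0 to 1 with 1 array left out. The counts at an unadjusted p under 0.05, 5 higher and 7 lower, were 3 to 6 and 3 to 6 with 1 array left out. Probe sets that passed, 39 as reported, were 12 with a constant of 20, 0 with no filter, 134 with a filter at the 60th percentile, 249 with a variance trend, 228 at an adjusted p under 0.10 and 2 to 38 with 1 array left out (14 or fewer unless that was ethanol sample 1). Other pathway genes that passed, 0 as reported (by limma at an unadjusted p under 0.05, 8 higher and 13 lower), were 1 with a constant of 100, 4 with a filter at the 60th percentile, 7 with a variance trend, 4 at an adjusted p under 0.10, 1 with probe sets averaged per gene and 0 to 2 with 1 array left out (2 without ethanol sample 1). Their counts of 8 and 13 were 4 to 7 and 8 to 13, and that of degradation genes 3 to 6, with 1 array left out; the first was 4 without control sample 2 and 5 without ethanol sample 1, and the next was 8 without control sample 1. The share of all tested genes at an unadjusted p was not taken in the alternatives, and the cause of these shifts was not tested.

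With the replicate number as a block, 0 of these genes (by limma at an unadjusted p under 0.05, 4 higher and 6 lower), 6 probe sets and 2 other pathway genes passed, and the adjusted p of Dnajb9 was 0.0717. Deviations from the group means of samples that share a number correlated with r of -0.030, 0.026 and -0.14. Those of samples with different numbers correlated with r of -0.076 to 0.095. With so few samples per diet these values cannot tell whether samples of the same number share more than that number.

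The median log2 change of the 31 genes, -0.094 as reported, was -0.0087 with quantile normalization. Changes of sign were to 0.03 for P4hb with quantile normalization, and to -0.020 for Serp1 and -0.070 for Erp44 with probe sets averaged per gene. With 1 array left out the change ran from -0.14 to 0.22 for Dnajb11, from -0.11 to 0.029 for Pdia6, from -0.092 to 0.18 for Erp44, from -0.47 to 0.061 for Trib3 and from -0.11 to 0.60 for Ppp1r15a.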
